A study of Mus musculus with 32 samples.

Results

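The 35 oligodendrocyte and myelin genes described here were taken by name from the 23420 genes in the striatal count tables of B6.D2 congenic and B6 mice. They comprised 27 genes of mature, myelin-forming cells, 3 transcription factors used throughout the lineage (*Olig1*, *Olig2* and *Sox10*) and 5 genes of precursor or newly forming cells (*Pdgfra*, *Cspg4*, *Gpr17*, *Enpp6* and *Bcas1*). One group held 8 B6 mice of strain C57BL/6J, and the other held 8 B6.D2 congenic littermates. The congenic mice were heterozygous for a segment of chromosome 11 from the D2 strain, with the rest of the genome from B6. All 16 mice were naïve and, by the labels, about 50 days old, and RNA came from punches of left and right striatum pooled for each mouse. Reads were counted per gene in each sequencing lane. The labels do not give the sex or home cage of each mouse, so neither was fitted.

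Oligodendrocytes wrap axons in myelin, a stack of membrane rich in cholesterol and galactolipids that is held together by a few abundant proteins. They arise from dividing precursors, recognised by the growth factor receptor *Pdgfra* and the proteoglycan *Cspg4*, which persist in the adult brain. In the striatum, mature cells are dense in the bundles of myelinated fibres that cross between the projection neurons. The transcription factor SOX10 acts through a short DNA motif at many myelin genes, and OLIG2 specifies the lineage.

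Counts on genes ranged from 19032826 to 33748353 per mouse, the members took 1.06% to 1.78% of them, and the lowest count of any member in any mouse was 263. All 35 members passed the filter on low counts, and the common coefficient of variation between mice in the edgeR fit was 13%. B6.D2 mouse 1 stood apart from the other 15 mice on the first principal component of all genes, which held 33.5% of the variance, and 27.3% of its reads had more than 1 alignment against 19.5% to 21.4% in the others. B6 mouse 8 stood apart on the second component. The main counts and the role groups are given with and without B6.D2 mouse 1.

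To show the kind of sequence that lies before these genes, the 250 bases upstream of the start in RefSeq (GRCm38.p6) were searched on both strands for ACAAAG and ACAATG, 2 cores of the SOX motif that share their first bases and cannot start at the same position. A window was found for 26 of the 35 members, and 9 of them (34.6%) held a match, against 25.5% of the first listed windows of 27025 genes. The stretches below belong to the matching members with the largest log2 fold changes (*Hapln2* and *Apod*) and to the matching lineage factor, a choice made after their values were seen. Capitals mark the motif as read on the strand of the gene. A match is a description of the letters and not a binding site.
Hapln2, chr3:88027514-88027573, minus strand, motif starting 35 bases before the start: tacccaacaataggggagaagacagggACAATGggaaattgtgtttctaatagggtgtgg
Apod, chr16:31314860-31314919, minus strand, motif starting 84 bases before the start: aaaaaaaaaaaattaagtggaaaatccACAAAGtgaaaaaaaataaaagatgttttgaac
Olig2, chr16:91225455-91225514, plus strand, motif starting 68 bases before the start: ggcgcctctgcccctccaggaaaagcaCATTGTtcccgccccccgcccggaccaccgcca

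The labelled tissue held abundant myelin transcripts in every mouse. Levels were compared between genes as normalised CPM (counts relative to the library total, scaled by the TMM method) per kb of the longest annotated coding transcript. *Mbp*, which encodes the protein that joins the inner faces of the myelin membrane, had the highest mean level at 1241 CPM per kb. *Cnp*, an enzyme of the myelin cytoplasm, followed at 378 and *Mal*, a proteolipid of myelin rafts, at 261. *Cspg4* had the lowest level of the 35, at 3.77 CPM per kb, next to *Enpp6*, a phosphodiesterase of newly forming oligodendrocytes, at 6.40. The ranges over the 16 mice of neighbours in this order overlapped except between *Mbp* and *Cnp* and between *Olig2* and *Pdgfra*. Of the precursor genes, *Bcas1*, which marks early myelinating cells, stood apart at 127 CPM per kb, above *Apod* and *Mog*, while the other 4 lay between 3.77 and 18.6.

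**Figure D1:**
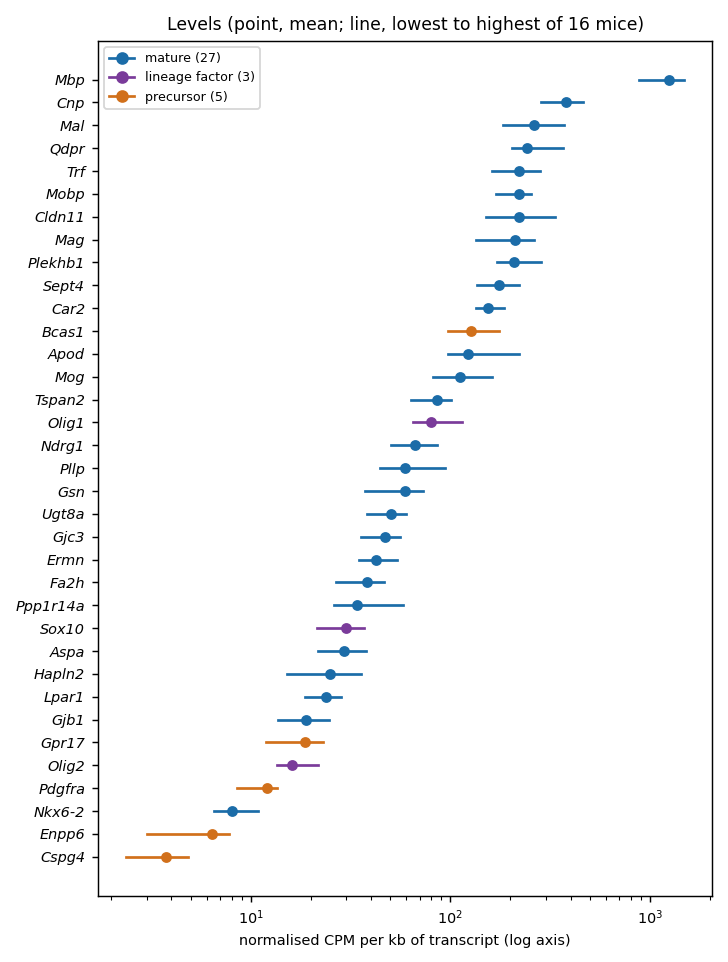
Mean level of each of the 35 members in normalised CPM per kb of the longest annotated coding transcript (log axis), with a line from the lowest to the highest of the 16 mice. Mbp sits alone at 1241, and 4 of the 5 precursor genes lie between 3.77 and 18.6.

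The comparison of congenic with B6 mice asked whether the chromosome 11 segment went with a difference in striatal transcript levels. None of the 35 members passed a false discovery rate (FDR) of 0.05 (edgeR quasi-likelihood test, Benjamini-Hochberg adjustment over 15589 genes), and the lowest member FDR was 0.405. Of all genes tested 1, or 0.00641%, passed, and it was not a member. At an unadjusted p under 0.05, 10 of the 27 mature members were higher in B6.D2 mice and 0 were lower, where 4.86% of all genes were higher and 5.14% lower at the same limit. The log2 fold change was above 0 for 25 of the 27 mature members, against 54.9% of all genes, and its median was 0.14 for the mature members and 0.01 for all genes. The 27 genes varied together from mouse to mouse, so these counts do not stand for 27 separate observations. The mice of the genotypes overlapped for all 35 members, and 0.0577% of all genes tested showed no overlap.

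The counts depended on single mice. Without B6.D2 mouse 1, 3 of the 27 mature members were higher at an unadjusted p under 0.05, where 5.82% of all genes were, and the median log2 fold change was 0.11. Without B6 mouse 2 or without B6.D2 mouse 8 the count was 2 each, without B6 mouse 3 it was 5, and without B6 mouse 5, B6 mouse 6 or B6.D2 mouse 7 it was 6 each. Without B6.D2 mouse 2 it was 16. Among these fits the share of all genes at that limit is given only without B6.D2 mouse 1. The other counts therefore have no background beside them. The median stayed between 0.11 and 0.19 whichever mouse was left out.

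A different number of oligodendrocytes and a different amount of RNA per cell cannot be told apart in these bulk punches. Markers of cortical glutamatergic neurons had lower values in B6.D2 mice. The summed level of 10 such markers ranged from 562 to 895 CPM in B6 mice (median 787) and from 399.6 to 786 CPM in B6.D2 mice (median 559). Of these 10 markers, 7 were lower in B6.D2 mice at an unadjusted p under 0.05, where 5.14% of all genes were, and 0 higher. Their median log2 fold change was -0.54, and none was at 0. The vesicular glutamate transporter *Slc17a7*, the most abundant of them, was at 415 ± 81.9 CPM in B6 and 268 ± 82.2 CPM in B6.D2 mice (SD, n = 8 each). The part of tissue composition in the values of the members was not tested.

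**Figure D2:**
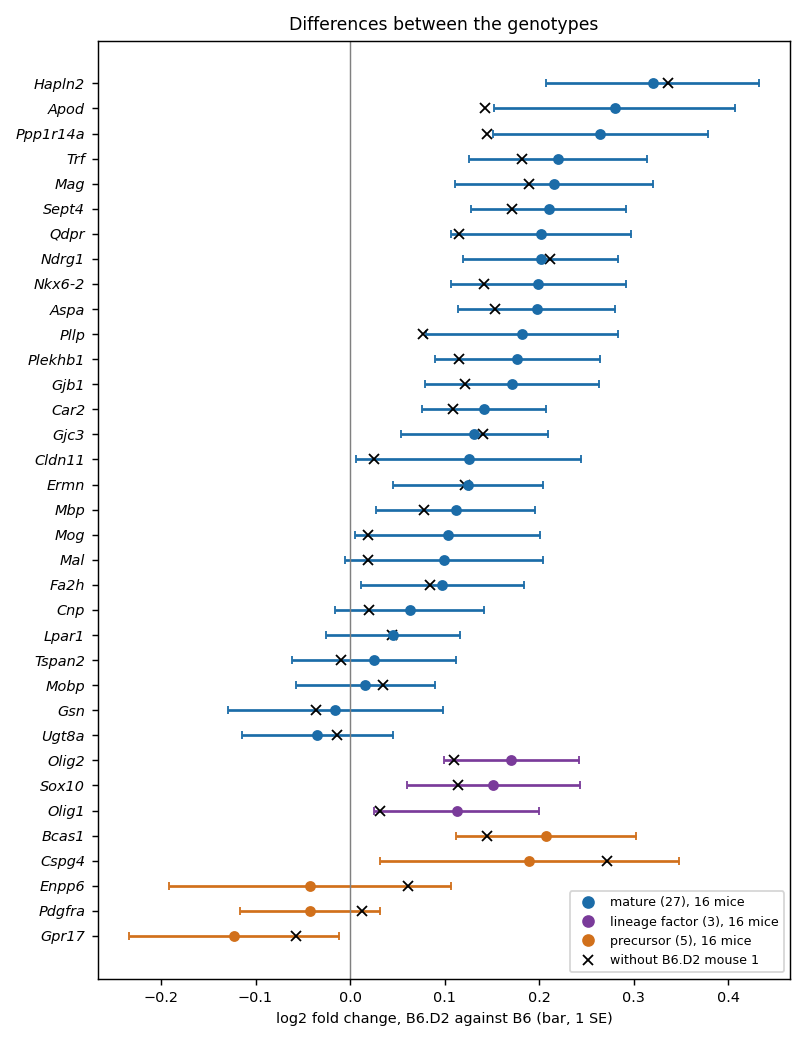
Log2 fold change of each member, B6.D2 against B6, in 16 mice (points, with bars of 1 SE) and without B6.D2 mouse 1 (crosses). Of the mature members 25 of 27 lie above 0, from -0.03 for Ugt8a to 0.32 for Hapln2, and without that mouse Mog, Mal, Cldn11 and Olig1 lie at 0.02 to 0.03.

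Among the secreted and perinodal proteins, all 3 members had higher levels at an unadjusted p under 0.05, where 4.86% of all genes did. This held for 1 of the 3, *Hapln2*, without B6.D2 mouse 1. *Hapln2* (mm9 chr3:87825672-87831505, minus strand) encodes a link protein of the hyaluronan matrix at nodes of Ranvier. Its levels in B6 mice had a lowest value of 26.0, a median of 40.65 and a highest value of 45.7 CPM, and in B6.D2 mice a lowest of 40.8, a median of 47.1 and a highest of 60.9. All 8 B6.D2 mice were above the B6 median and 5 were above every B6 mouse, with B6 mouse 8 lowest and B6.D2 mouse 8 highest. The log2 fold change was 0.32 (SE 0.11, unadjusted p = 0.0106, FDR = 0.405, edgeR), and without B6.D2 mouse 1 it was 0.34.

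*Trf* (mm9 chr9:103106331-103132774, minus strand), the iron carrier transferrin, had a lowest level of 490.0, a median of 597 and a highest of 755 CPM in B6 mice, and of 578, 731 and 848 CPM in B6.D2 mice. B6 and B6.D2 mouse 2 were the lowest of their groups, and 2 B6.D2 mice lay above every B6 mouse. This gave a log2 fold change of 0.22 (SE 0.09, unadjusted p = 0.0310, FDR = 0.463, edgeR), and 0.18 without B6.D2 mouse 1 (unadjusted p = 0.0592). *Apod*, a lipid-binding lipocalin of glia, had a log2 fold change of 0.28 (unadjusted p = 0.0413, edgeR) that went to 0.14 without B6.D2 mouse 1 (unadjusted p = 0.0953), where it stood at 456 CPM against 312 CPM in the next mouse.

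Of the 6 cytoskeletal and signalling members, 3 were higher at an unadjusted p under 0.05, where 4.86% of all genes were, and 5 were above 0, where 54.9% of all genes were. The count was 2 of 6, *Sept4* and *Ndrg1*, without B6.D2 mouse 1. *Sept4* (mm9 chr11:87382405-87404041, plus strand) encodes a septin, a filament-forming GTPase. It ranged from 233 to 318 CPM in B6 mice (median 283) and from 262 to 383 CPM in B6.D2 mice (median 326). In B6.D2 mice 5 of 8 were above every B6 mouse, with B6 mouse 2 lowest. The log2 fold change was 0.21 (SE 0.08, unadjusted p = 0.0191, FDR = 0.435, edgeR). *Sept4* is 1 of 3 members on chromosome 11, with *Cnp* and *Aspa*, and all 3 lie distal to the congenic segment.

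*Ndrg1* (mm9 chr15:66760883-66801202, minus strand), a stress-responsive gene also needed by Schwann cells, ranged from 146 to 213 CPM in B6 mice (median 179.6) and from 172 to 248 CPM in B6.D2 mice (median 209.6). Its lowest mouse in each group was mouse 2, and 3 B6.D2 mice were above every B6 mouse. This gave a log2 fold change of 0.20 (SE 0.08, unadjusted p = 0.0239, FDR = 0.445, edgeR), and 0.21 without B6.D2 mouse 1.

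*Ppp1r14a* (mm9 chr7:30074339-30078409, plus strand), an inhibitor of myosin phosphatase, ranged from 13.8 to 17.8 CPM in B6 mice (median 17.2) and from 15.85 to 30.6 CPM in B6.D2 mice (median 17.8). B6.D2 mouse 1 held the value of 30.6, and the next B6.D2 mouse was at 21.5. The log2 fold change was 0.26 (SE 0.11, unadjusted p = 0.0313, FDR = 0.463, edgeR) and 0.14 without that mouse. Of the remaining members of this role, the myelin-associated *Plekhb1* was at 0.18, the lysophosphatidic acid receptor *Lpar1* at 0.05 and the actin-severing protein gelsolin (*Gsn*) at -0.02, with unadjusted p from 0.0585 to 0.893.

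Of the 5 enzymes, 3 were higher at an unadjusted p under 0.05, where 4.86% of all genes were, and without B6.D2 mouse 1 the count was 0. *Aspa* (mm9 chr11:73118494-73140309, minus strand), which splits N-acetylaspartate to free acetate in oligodendrocytes, ranged from 33.05 to 46.7 CPM in B6 mice (median 43.0) and from 38.9 to 57.9 CPM in B6.D2 mice (median 47.3). The lowest mouse was again mouse 2 in each group, and 4 B6.D2 mice were above every B6 mouse. Its log2 fold change was 0.20 (SE 0.08, unadjusted p = 0.0282, FDR = 0.460, edgeR), and 0.15 without B6.D2 mouse 1 (unadjusted p = 0.0582). Carbonic anhydrase (*Car2*) and dihydropteridine reductase (*Qdpr*) had log2 fold changes of 0.14 and 0.20, which were 0.11 and 0.12 without that mouse (unadjusted p = 0.0854 and 0.110, edgeR), and *Fa2h*, which hydroxylates the fatty acids of myelin galactolipids, was at 0.10. *Ugt8a*, which makes those galactolipids, was at -0.03.

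The 10 proteins of the myelin membrane and its cytoplasm had log2 fold changes from 0.02 to 0.22 with a median of 0.11, and none had an unadjusted p under 0.05. Their median was 0.03 without B6.D2 mouse 1, with 9 of the 10 above 0. *Mbp* (mm9 chr18:82644538-82755029, plus strand) ranged from 4230.0 to 6333 CPM in B6 mice (median 5860.0) and from 4921 to 7142 CPM in B6.D2 mice (median 6039). Mouse 2 was lowest in each group, and 3 B6.D2 mice were above every B6 mouse. This gave a log2 fold change of 0.11 (SE 0.08, unadjusted p = 0.202, FDR = 0.656, edgeR).

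*Mobp* (mm9 chr9:120058860-120090602, plus strand), which encodes a basic protein of compact myelin, ranged from 558 to 768 CPM in B6 mice (median 741) and from 594 to 829.7 CPM in B6.D2 mice (median 729). The medians lay in the reverse order to the fitted log2 fold change of 0.02 (SE 0.07, unadjusted p = 0.830, FDR = 0.954, edgeR). *Cnp* (mm9 chr11:100436218-100453043, plus strand) ranged from 673 to 927 CPM in B6 mice (median 895) and from 708 to 1092 CPM in B6.D2 mice (median 887). Its log2 fold change was 0.06 (SE 0.08, unadjusted p = 0.434, FDR = 0.804, edgeR).

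*Mog* (mm9 chr17:37147691-37160343, minus strand), a protein of the outermost myelin layer, ranged from 139 to 201.5 CPM in B6 mice (median 189.9) and from 149.9 to 275 CPM in B6.D2 mice (median 186). B6.D2 mouse 1 was highest and mouse 2 lowest in B6.D2, and 3 B6.D2 mice were above the B6 median. The log2 fold change was 0.10 (SE 0.10, unadjusted p = 0.306, FDR = 0.723, edgeR) and 0.02 without B6.D2 mouse 1. *Mag*, the adhesion protein that faces the axon, had the highest value of the membrane proteins, 0.22 (unadjusted p = 0.0548), and the others were *Cldn11*, *Ermn*, *Mal*, *Pllp* and *Tspan2*. Both connexins of the list, *Gjb1* and *Gjc3*, were above 0, at 0.17 and 0.13. The homeobox factor *Nkx6-2*, found in mature oligodendrocytes, was at 0.20 (unadjusted p = 0.0442, edgeR) and at 0.14 without B6.D2 mouse 1, where its unadjusted p no longer lay under 0.05.

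**Figure D3:**
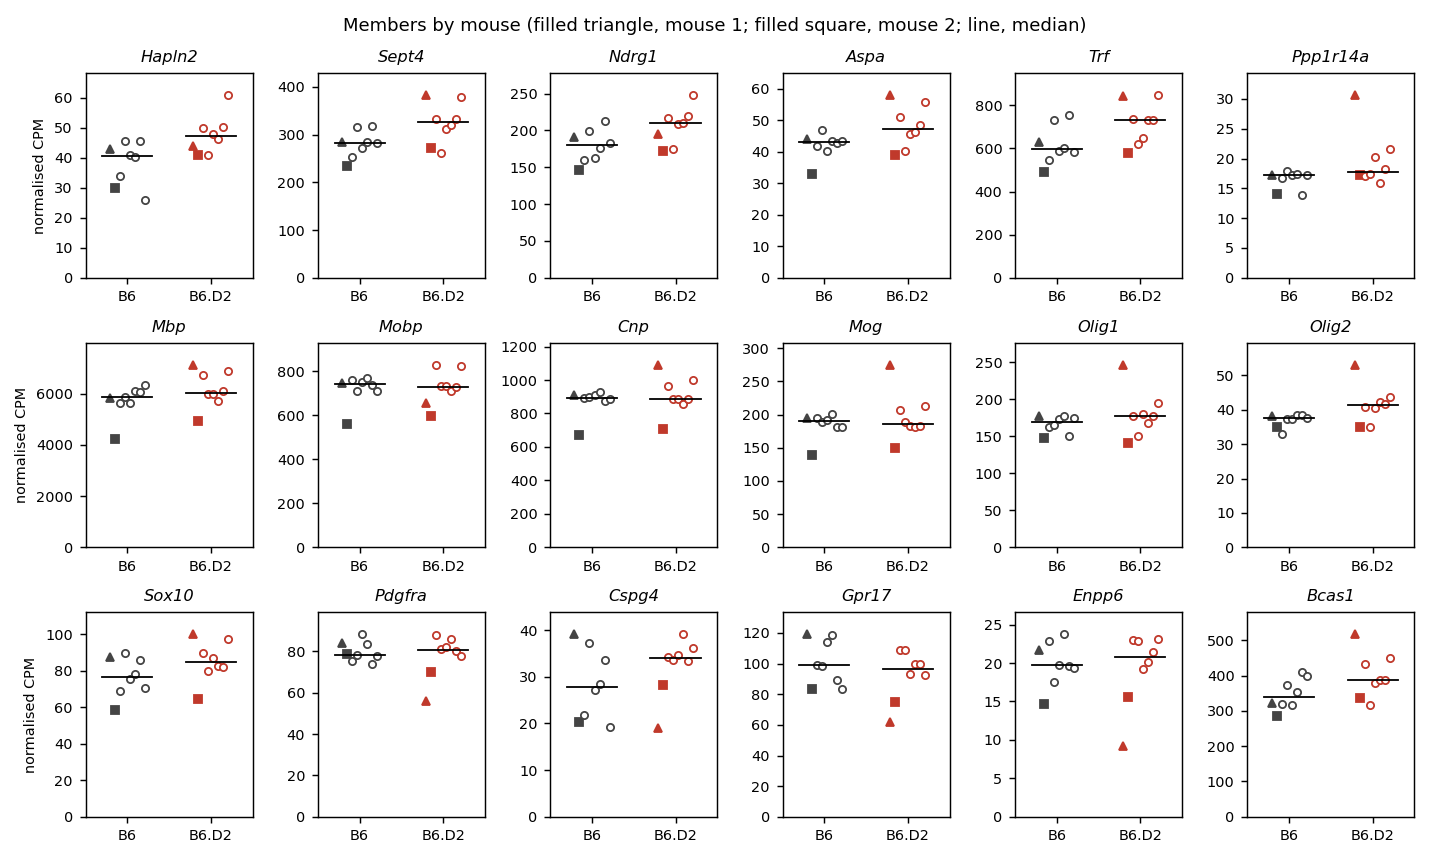
Normalised CPM of the 18 named members in each mouse, axes from 0, with a line at the median of each group of 8; triangles are mouse 1 and squares mouse 2 of each genotype. Mouse 2 is lowest or near lowest for most mature genes in both groups, and B6.D2 mouse 1 is highest for Ppp1r14a, Mog and Olig2 and lowest for Pdgfra, Cspg4, Gpr17 and Enpp6.

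The 3 lineage-wide transcription factors had log2 fold changes between 0.11 and 0.17, with a median of 0.15. *Olig2* (mm9 chr16:91225795-91228922, plus strand) ranged from 32.9 to 38.6 CPM in B6 mice (median 37.5) and from 34.9 to 53.15 CPM in B6.D2 mice (median 41.4). In B6.D2 mice 6 of 8 were above every B6 mouse, and B6.D2 mouse 1 was highest. This gave a log2 fold change of 0.17 (SE 0.07, unadjusted p = 0.0279, FDR = 0.460, edgeR) and 0.11 without that mouse (unadjusted p = 0.0536).

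*Olig1* (mm9 chr16:91270014-91272184, plus strand), the neighbour of *Olig2* and a factor for maturation, ranged from 148 to 177 CPM in B6 mice (median 169) and from 141 to 247 CPM in B6.D2 mice (median 178). Its log2 fold change was 0.11 (SE 0.09, unadjusted p = 0.213, FDR = 0.664, edgeR) and 0.03 without B6.D2 mouse 1. *Sox10* (mm9 chr15:78985343-78994920, minus strand), the factor whose motif is shown above, ranged from 58.2 to 89.6 CPM in B6 mice (median 76.8) and from 64.5 to 99.97 CPM in B6.D2 mice (median 84.6). Its log2 fold change was 0.15 (SE 0.09, unadjusted p = 0.115, FDR = 0.588, edgeR). For *Olig1* and *Sox10*, mouse 2 was lowest and B6.D2 mouse 1 highest among the B6.D2 mice.

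The 5 precursor members did not share a direction: 2 log2 fold changes were above 0 and 3 below, with a median of -0.04. *Bcas1* (mm9 chr2:170172491-170253345, minus strand) was the only one with an unadjusted p under 0.05. It ranged from 285.5 to 409.6 CPM in B6 mice (median 339) and from 316.5 to 518 CPM in B6.D2 mice (median 388), with a log2 fold change of 0.21 (SE 0.10, unadjusted p = 0.0422, FDR = 0.480, edgeR). Without B6.D2 mouse 1, its highest mouse, it was at 0.15 (unadjusted p = 0.0956).

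*Pdgfra* (mm9 chr5:75548316-75594229, plus strand), the receptor that drives division of precursors, ranged from 73.8 to 88.4 CPM in B6 mice (median 78.5) and from 55.8 to 88.2 CPM in B6.D2 mice (median 80.7). Its log2 fold change was -0.04 (SE 0.07, unadjusted p = 0.573, FDR = 0.864, edgeR). *Cspg4* (mm9 chr9:56712911-56747677, plus strand), a proteoglycan of these cells, ranged from 19.15 to 39.1 CPM in B6 mice (median 27.85) and from 19.0 to 39.1 CPM in B6.D2 mice (median 34.0), at a log2 fold change of 0.19 (SE 0.16, unadjusted p = 0.246, FDR = 0.689, edgeR). The lowest B6.D2 mouse for both was mouse 1.

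*Gpr17* (mm9 chr18:32102651-32109290, minus strand), a receptor of committed precursors, ranged from 83.6 to 119 CPM in B6 mice (median 98.97) and from 61.9 to 109 CPM in B6.D2 mice (median 96.6), with a log2 fold change of -0.12 (SE 0.11, unadjusted p = 0.284, FDR = 0.708, edgeR). *Enpp6* (mm9 chr8:48072279-48180249, plus strand) ranged from 14.65 to 23.75 CPM in B6 mice (median 19.7) and from 9.25 to 23.2 CPM in B6.D2 mice (median 20.7), with a log2 fold change of -0.04 (SE 0.15, unadjusted p = 0.780, FDR = 0.935, edgeR). B6.D2 mouse 1 was again the lowest of its group for both. Without it, *Pdgfra* and *Enpp6* were at 0.01 and 0.06, *Gpr17* at -0.06 and *Cspg4* at 0.27, and the median of the precursor members was 0.06 in place of -0.04.

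The mature members varied together from mouse to mouse. With the mean of each genotype removed, the median Pearson r over the 351 pairs of mature members was 0.65 across the 16 mice, against 0.01 between mature members and the other genes tested. The lineage factors varied with them at a median r of 0.71. These r values describe the same 16 libraries and are not independent of each other. Without B6.D2 mouse 1 and both mice numbered 2, the median over the mature pairs was 0.46 in 13 mice. Between the lineage factors and the mature members it was 0.45 in those 13. Between the mature members and the 10 cortical markers the median r was -0.41 in 16 mice and -0.28 in those 13.

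*Bcas1* varied like the mature members, with a median r of 0.69 to them in 16 mice and 0.61 in the 13. The other 4 precursor members had medians from -0.21 to 0.11 in 16 mice and from -0.15 to 0.07 in the 13. In 15 mice, with B6.D2 mouse 1 alone left out, those 4 had medians from 0.28 to 0.61. The value thus depended on which mice were included.

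Mouse 2 of each genotype carried the lowest mature levels. Summed over the 27 mature members, B6 mice ranged from 9949 to 13720.0 CPM with a median of 13430.0, and B6.D2 mice from 11210.0 to 16610.0 CPM with a median of 13690.0. B6 mouse 2 was the lowest B6 mouse for 20 of the 27 mature members, and its median difference from the other B6 mice was -0.38 on the log2 scale. B6.D2 mouse 2 was lowest for 20 of the 27 as well, with a median of -0.30. Each mouse 2 also had the highest summed level of cortical markers in its genotype, at 895 and 786 CPM. B6 mouse 3 was close, at 889.7 CPM, with a mature median difference of -0.05. B6.D2 mouse 8 was above the median of the other B6.D2 mice for 27 of 27 mature members, with a median difference of 0.21, and its cortical sum was 401 CPM. The lowest cortical sum, 399.6 CPM, was in B6.D2 mouse 7, whose mature median difference was 0.03.

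**Figure D4:**
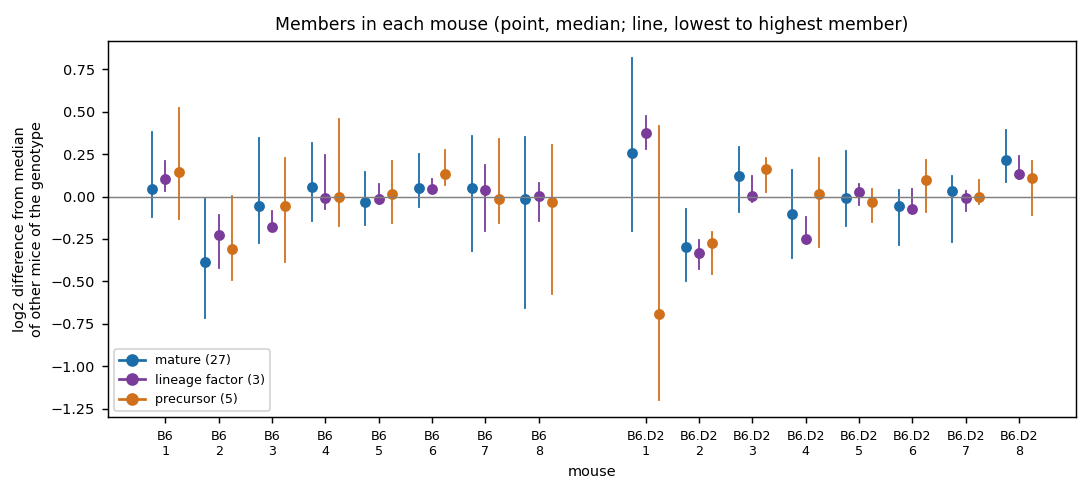
Log2 difference of the members in each mouse from the median of the other mice of its genotype (point, median of the list; line, lowest to highest member). In mouse 2 of each genotype all 3 medians lie below 0, and in B6.D2 mouse 1 the mature median is 0.26 while the precursor median is -0.69.

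B6.D2 mouse 1 differed from the other B6.D2 mice in another way. It was the highest B6.D2 mouse for 16 of 27 mature members and for 3 of 3 lineage factors, and the lowest for 4 of 5 precursor members. Across the 35 members its log2 difference from the other B6.D2 mice had a Spearman rho of -0.67 with transcript length, and across 14055 genes with a length the rho was -0.66. In the other 15 mice the rho across those genes lay between -0.18 and 0.29. Across the 35 members alone the rho of the other mice ranged more widely, from -0.56 in B6.D2 mouse 8 to 0.51 in B6 mouse 6. Genes are not independent replicates, so no p is given.

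The 12 shortest members, with transcripts of 531 to 2074 bp, had a median difference of 0.51 in this mouse and 11 of 12 above 0. The 12 longest, of 3028 to 8050 bp, had a median of -0.13 and 4 of 12 above 0. The group of shortest members also held 8 of the 12 members with an unadjusted p under 0.05 and had a median log2 fold change between the genotypes of 0.20, against 0.04 for the longest. Without B6.D2 mouse 1 these medians were 0.13 and 0.05. Of the 5 precursor members, 4 are among these 12 longest. *Enpp6* (3063 bp) was at -1.20 in this mouse, with the mature *Trf* (3028 bp) at 0.21 and *Mobp* (3286 bp) at -0.16. *Gpr17* (5195 bp) was at -0.69 and *Mbp* (4797 bp), the longest mature member, at 0.26. The lowest mature member was *Ugt8a* (3583 bp) at -0.21. *Pdgfra* (6570 bp) and *Cspg4* (8050 bp) had no mature member of like length. The remaining precursor member, *Bcas1* (2952 bp), was at 0.42, above the mature *Ndrg1* (2886 bp) at -0.11. The part of RNA quality in this pattern was not tested.

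**Figure D5:**
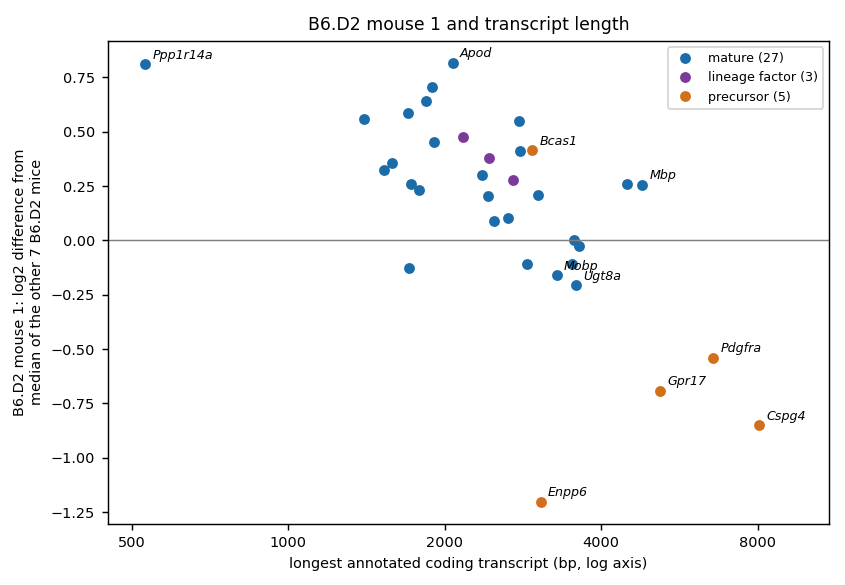
Log2 difference of each member in B6.D2 mouse 1 from the median of the other 7 B6.D2 mice, against the length of its longest annotated coding transcript (bp, log axis). Ppp1r14a (531 bp) and Apod lie at 0.81 and 0.82, and Pdgfra, Gpr17, Cspg4 and Enpp6 between -0.54 and -1.20.

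Libraries were run on a pair of lanes, with 4 mice of each genotype on lanes 5 and 6 and 4 on lanes 7 and 8. On lanes 5 and 6 alone the median log2 fold change of the mature members was 0.19 and 0 of 27 had an unadjusted p under 0.05 (edgeR, as before). On lanes 7 and 8 alone the median was 0.11 and the count 7, all higher. Of all genes tested, 256 of 15642 were higher at that limit on lanes 5 and 6, and 679 of 15619 on lanes 7 and 8. Mouse 2 of each genotype and B6.D2 mouse 1 were on lanes 5 and 6. The difference of the genotype effect between lane pairs was tested by an interaction term: 0 of 35 members had an unadjusted p under 0.05, where 1.88% of all genes did, and the lowest member p was 0.170, for *Cspg4*. *Cspg4* itself was at -0.04 on lanes 5 and 6 and 0.41 on lanes 7 and 8.

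A further 28 genes of mature oligodendrocytes, which are not members, lay to the same side. These genes were chosen with earlier results of these data known and were measured in the same libraries as the members. They are therefore not independent support for the values of the members. Their median log2 fold change was 0.17, and 26 of 28 were above 0, where 54.9% of all genes were. At an unadjusted p under 0.05, 7 were higher and 0 lower, where 4.86% and 5.14% of all genes were. None of the 28 passed an FDR of 0.05. *Cercam*, a glycosyltransferase-like gene, was at 12.3 ± 3.33 CPM in B6 and 16.6 ± 1.78 CPM in B6.D2 mice (log2 fold change 0.43, unadjusted p = 0.00724, edgeR). *Carns1*, which makes carnosine, was at 27.2 ± 5.71 and 34.1 ± 3.02 CPM (log2 fold change 0.33, unadjusted p = 0.00869, edgeR). Without B6.D2 mouse 1, 26 of the 28 were above 0, with a median of 0.12. At an unadjusted p under 0.05, 8 were then higher, where 5.82% of all genes were. A further 15 precursor genes had a median of -0.01 with 0 at an unadjusted p under 0.05 in either direction.

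Genes that make cholesterol and other membrane lipids were mixed. Of 24 such genes, 16 were below 0, and the median was -0.04. At an unadjusted p under 0.05 there was 1 higher and 4 lower, where 4.86% and 5.14% of all genes were. In a split made after the values were seen, 15 of the 17 cholesterol genes were below 0, and 6 of the 7 genes of fatty acid and sphingolipid synthesis were above 0. *Cyp51*, an enzyme of cholesterol synthesis, was at 78.1 ± 9.46 CPM in B6 and 69.2 ± 5.42 CPM in B6.D2 mice (SD, n = 8 each), a log2 fold change of -0.17 (unadjusted p = 0.0222, FDR = 0.445, edgeR), and *Elovl1*, which lengthens fatty acids, was at 0.20 (unadjusted p = 0.0456, edgeR) and 0.12 without B6.D2 mouse 1. Without that mouse 15 of the 24 were below 0. At an unadjusted p under 0.05, 10 were then lower and 0 higher, where 1178 and 909 of 15624 genes tested were. Neurons and astrocytes also make these lipids, and the share of oligodendrocytes in these values was not measured.

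Markers of the other cells that a punch can hold gave these values. The medians of the log2 fold change were 0.07 for 10 astrocyte, 0.09 for 10 microglial, 0.12 for 8 endothelial, 0.04 for 10 striatal projection neuron, 0.21 for 6 choroid plexus and 0.13 for 4 peripheral nerve genes. Of these, 1 gene, the endothelial *Ly6c1*, had an unadjusted p under 0.05. Above 0 were 7 of 10 astrocyte, 10 of 10 microglial, 8 of 8 endothelial and 8 of 10 striatal projection neuron genes. So were 6 of 6 choroid plexus and 3 of 4 peripheral nerve genes, where 54.9% of all genes were. Of the 10 cortical markers 0 were. A log2 fold change above 0 was thus not particular to the oligodendrocyte genes. The summed level of the 5 peripheral nerve genes was 95.7 to 124 CPM in B6 and 82.7 to 125 CPM in B6.D2 mice, and no listed gene was at 0 in all mice of a group. The part of these other cells in the values of the members was not tested.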

How the data were processed

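Total RNA from pooled striatal punches was made into stranded mRNA libraries (oligo-dT, 50 bp single-end reads) and run on 2 lanes each. Per the labels and the study's methods, reads were aligned with TopHat to mm10 and counted per gene with HTSeq 0.6.1p1 in union mode without using the strand. The authors deposited these values as counts per gene for each lane, without normalization. Multiply aligned reads and those shared by genes were left out, and antisense reads cannot be told apart: exons of *Cnp*, *Ermn*, *Nkx6-2*, *Tspan2*, *Ndrg1*, *Gpr17* and *Bcas1* overlap an antisense gene by 34 to 440 bp in GENCODE (mm9). The tables of the authors' own fold changes and p-values were not used.

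Lane counts were summed for each of 16 mice from 31 lane files. B6 mouse 7 entered with a single lane file. After filterByExpr and TMM scaling, the genotypes were compared by quasi-likelihood F tests in edgeR 4.0.16 (R 4.3.3) with Benjamini-Hochberg FDRs over all genes tested. Mice were grouped by the labelled genotype. p-values measure the spread between these mice. Differences of 1 mouse from its group used log2(CPM + 0.1). The pipeline was tested on simulated data. Gene positions and transcript lengths were looked up by symbol in GENCODE on NCBIM37 (mm9), because the count tables hold none, and upstream sequence came from RefSeq on GRCm38.p6, so positions on the 2 builds are not comparable. The members and all gene lists were chosen with earlier results of these data known, and the lists are not independent support. Values are given in full for the 6 mature members of smallest p, the precursor and lineage genes, and *Mbp*, *Mobp*, *Cnp* and *Mog*, and in the other lists of the pathway for the 2 genes of smallest p in each direction where p was under 0.05. A result that this rule names is not reported here. *Ly6c1*, *Slc17a7* and the other members given with single values are named beyond that rule, after their values were seen. Alternatives were other normalizations, no filter on low counts, DESeq2 1.42.0, a likelihood ratio test, lane pairs, the second lane file alone, a block on mouse number and leaving out each mouse. Leaving out B6.D2 mouse 1 and B6 mouse 8 together was added after seeing the data.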

Additional observations from a re-analysis of the deposited data

Results flagged for a closer look

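In each member and genotype, the gap between the most extreme mouse and its neighbour was compared with the range of the 8 mice (Dixon's limit, 0.526). Of 70 such groups 13 passed, where chance passes about 1 in 20, and the members are not independent of each other. B6 mouse 2 gave 9 of them, all low: *Mbp* at 4230.0 CPM, *Cnp* at 673, *Mobp* at 558, *Mal* at 511, *Cldn11* at 278, *Mog* at 139, *Pllp* at 84.2, *Fa2h* at 66.2 and *Lpar1* at 66.0 CPM. The nearest B6 mouse was at 5648 CPM for *Mbp* and 872 CPM for *Cnp*. B6.D2 mouse 1 gave 3, all high, with *Apod* at 456, *Pllp* at 177 and *Ppp1r14a* at 30.6 CPM. The remaining one was *Nkx6-2* in B6 mouse 8, at 16.9 CPM against 14.8 CPM in the next mouse. No member passed the test of a different genotype effect between lane pairs.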

How the results depend on the processing

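No member passed an FDR of 0.05 under any of the alternatives run, and the lowest member FDR was 0.265 by DESeq2, 0.290 by the likelihood ratio test and 0.264 with 1 mouse left out. At an unadjusted p under 0.05 in the edgeR fit, 12 of the 35 members were higher and 0 lower, where 4.86% and 5.14% of all genes were. Genes at an FDR of 0.05 over the whole table numbered 1, and 20 by the likelihood ratio test, 32 by DESeq2, 2 with lane pair as a covariate, 7 without B6.D2 mouse 1 and B6 mouse 8, and 0 on lanes 5 and 6 alone (500 genes at an unadjusted p under 0.05), on lanes 7 and 8 alone (1407) and with the block on mouse number (1377). With 1 mouse left out they numbered 1 to 4.

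At an unadjusted p under 0.05, 0 mature members, 0 lineage factors and 0 precursor members were higher on lanes 5 and 6 alone. On lanes 7 and 8 alone 2 lineage factors were. Of all genes, 256 of 15642 and 679 of 15619 were higher on these lane pairs. Without B6.D2 mouse 1 and B6 mouse 8, 8 of 27 mature members, 0 of 3 lineage factors and 1 of 5 precursor members were. Of all genes, 848 of 15601 were higher in that fit, and the median log2 fold change of the mature members was 0.11. With 1 mouse left out the counts ran from 2 to 16 mature, 0 to 2 lineage and 0 to 1 precursor members, without shares of all genes to set beside most of them. The medians of log2 fold change then ran from 0.11 to 0.19 for the mature members, from 0.10 to 0.20 for the lineage factors and from -0.07 to 0.06 for the precursor members, the last above 0 only without B6.D2 mouse 1. The sign differed from the full fit for *Pdgfra* on lanes 7 and 8 alone (0.0082) and without B6.D2 mouse 1 and B6 mouse 8 (0.0050), for *Enpp6* under the same settings (0.0203 and 0.0551) and for *Cspg4* on lanes 5 and 6 alone (-0.0405). With 1 mouse left out, *Pdgfra* ran from -0.0705 to 0.0128, *Enpp6* from -0.0952 to 0.0617 and *Mobp* from -0.0274 to 0.0527, and the other 15 named genes kept their sign. The cause of these changes was not tested.

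The labels number mice 1 to 8 in each genotype. Same-numbered mice had correlated deviations of -0.12 to 0.36, not all above 0.1, and 2 of 8 B6 mice correlated best with their own number, so the numbers were not taken to pair the mice. With the replicate block, 8 mature members, 2 lineage factors and 1 precursor member were higher at an unadjusted p under 0.05. At that limit 649 of 15589 genes tested were higher. In the edgeR fit the common coefficient of variation between mice was 13%, and the lowest member count in a mouse was 263. The parts of this spread and of counting depth in the FDRs were not tested.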
